A study of Mus musculus with 49 samples.

Results

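The report follows 10 genes that mark medium spiny neurons (MSNs) of both the D1 and the D2 kind, taken by name from the 52636 genes of the count table. Striatal signalling is represented by Ppp1r1b, Ptpn5, Arpp21, Rasgrp2 and Hpca, retinoid receptors by Rxrg and Rarb, and GABA synthesis and transport by Gad1, Gad2 and Slc32a1. The genes were listed for their roles and not by a threshold on these counts, and each was found under its own Ensembl identifier with a count in every library.

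The study asked how RiboTag affinity purification and the sorting of whole cells or nuclei by FACS compare in the RNA they retrieve from D1- and D2-MSNs of the mouse nucleus accumbens (NAc). Mice were of the C57BL/6J background, untreated as far as the labels say, and their ages were not given in the sources used here. Each library came from its own mouse. Whole cell libraries (8 D1 and 6 D2, labelled male) were made from fresh tissue digested with papain, in which cells carrying a cytoplasmic fluorophore under the Drd1 or Drd2 promoter were sorted for total RNA. Nuclear libraries (6 D1 and 5 D2, labelled male) were made from frozen tissue of mice carrying 1 copy of a Cre-dependent EGFP, named Thy1-loxPSTOPloxP-EGFP-F and described as a nuclear label, crossed to Drd1-cre or Drd2-cre. RiboTag libraries were made from fresh tissue by immunoprecipitation of HA-tagged ribosomes, in crosses of Rpl22-loxPexon4loxP-exon4-HA with Drd1-cre or Drd2-cre, and came from mice labelled male (6 D1 and 6 D2) or female (5 D1 and 5 D2). In all 3 methods labelling depended on the promoter of a dopamine receptor gene, directly or through Cre. That promoter by itself did not limit the labelled cells to MSNs.

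MSNs are the GABAergic projection neurons that make up most of the striatum. Dopamine acts on D1 receptors to raise cAMP in one kind and on D2 receptors to lower it in the other, and both kinds pass the signal to DARPP-32, the product of Ppp1r1b, which inhibits protein phosphatase 1 once protein kinase A has phosphorylated it. Ptpn5 encodes STEP, a striatum-enriched tyrosine phosphatase that opposes MAP kinases and Src-family kinases, Arpp21 a cAMP-regulated phosphoprotein that binds RNA, Rasgrp2 a guanine nucleotide exchange factor for Rap1, and Hpca the calcium sensor hippocalcin. Retinoic acid acts on heterodimers of retinoic acid receptors such as Rarb with retinoid X receptors such as Rxrg. Glutamate decarboxylases encoded by Gad1 and Gad2 make GABA, and the vesicular transporter encoded by Slc32a1 loads it into synaptic vesicles.

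Promoter sequence is shown for the pair of retinoid receptor genes. On the TMM scale given below, Rarb had its lowest and Rxrg its highest median levels in RiboTag groups, although their products work as partners. The RefSeq sequences of GRCm38.p6 that follow are the 100 bases before a start of transcription, in lower case, with the copies of a direct repeat in capitals. Of Rarb they are chr14:16575477-16575576 on the minus strand, for a start that lies inside the annotated span of the gene. Of Rxrg they are chr1:167598262-167598361 and, for a start downstream, chr1:167618165-167618264, both on the plus strand.
Rarb: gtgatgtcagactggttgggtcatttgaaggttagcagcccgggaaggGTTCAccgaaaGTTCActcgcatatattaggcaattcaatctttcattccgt
Rxrg, upstream start: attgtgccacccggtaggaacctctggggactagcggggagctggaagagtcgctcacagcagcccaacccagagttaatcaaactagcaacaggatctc
Rxrg, downstream start: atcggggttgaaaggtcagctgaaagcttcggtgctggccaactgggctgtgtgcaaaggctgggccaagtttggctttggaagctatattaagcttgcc
The letters searched on both strands were GTTCA, then 6 bases of any kind, then GTTCA again, which spell a direct repeat of the kind that retinoic acid receptor heterodimers are known to bind. They first occur 52 bases before this Rarb start, in 1 of the 22 promoters listed for 9 of the genes (Ppp1r1b was not matched) and in 25 of 32851 promoters of all genes, or 0.0761%. The cAMP response element TGACGTCA was in 588 promoters of all genes, or 1.79%, and in 0 of the 22. These matches describe letters only, and the promoter windows run from 250 bases before to 50 bases after each start. A single exact spelling of the repeat was searched, so repeats spelled otherwise were not counted or marked, in Rxrg or elsewhere. The share over all promoters is that of this spelling, and the match in Rarb is no test of an element particular to that gene.

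Levels are given as CPM, the count scaled to library totals that were adjusted by TMM over all 47 libraries, unless a value is said to be per length. Whole cell libraries held totals of 10476223 to 27965357 counts, and totals ran from 3701255 to 68777008 in nuclear and from 24076888 to 45641342 in RiboTag libraries. The labels were checked on marker sums. The sum of 5 genes that mark D1-MSNs, Drd1 among them, was higher in D1 than in D2 libraries by all 3 methods, with no overlap. In nuclear libraries the test described below called Drd1 lower in D2 (log2 fold change -1.75, SE 0.30). Pdyn (-0.23), Tac1 (-0.43) and Chrm4 (-0.78) were also below 0 there but not called, and Isl1 was not tested. The sum of 5 genes that mark D2-MSNs was 489 to 1992 CPM in whole cell D2 against 32.7 to 114 in whole cell D1 libraries, but 68.5 to 171 in nuclear D2 against 74.4 to 369 in nuclear D1 libraries. Within nuclear libraries Drd2 was higher in D2 (log2 fold change 1.74, SE 0.20) and Penk, the enkephalin precursor of D2-MSNs, was lower in D2 (-2.41, SE 0.51), so the D2 label of the nuclear libraries was matched by Drd2 and not by the list as a whole. An estimate of the counts that fall evenly over the genome, from olfactory and vomeronasal receptor genes, took a median of 28.0% of the counts in whole cell D1, 15.7% in whole cell D2, 4.57% in nuclear D1 and 34.0% in nuclear D2 libraries, and at most 0.0618% in any RiboTag library. In whole cell D2 libraries number 2 and 6, 10 genes took 54.5 and 38.3% of all counts, and the number of called genes among the 10, in every comparison with whole cell D2 libraries, was the same without them.

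The DARPP-32 gene Ppp1r1b (ENSMUSG00000061718, GRCm38 chromosome 11, 98348404 to 98357796, plus strand) was near the top of every preparation. Among protein-coding genes ranked by FPKM over the gene span, it lay at the 99.2 percentile in nuclear D2 and between 99.6 and 99.8 in the other 7 groups. Its level was 13.1 to 112 CPM in whole cell D1 (median 64.3, n = 8) and 32.8 to 122 in whole cell D2 libraries (median 57.7, n = 6). In nuclear D1 libraries it ran from 15.1 to 106 CPM (median 58.1, n = 6), and the 5 nuclear D2 libraries held 5.81, 8.28, 11.1, 2.71 and 5.82 CPM. Every nuclear D2 library was below every other library of the series. RiboTag libraries labelled male held 331 to 402 CPM in D1 (median 347, n = 6) and 364 to 455 in D2 (median 401, n = 6). The libraries labelled female held 373, 371, 366, 427 and 395 CPM in D1 and 460.4, 387, 471, 461 and 448 CPM in D2. All RiboTag libraries lay above all sorted ones, while D1 and D2 ranges overlapped in both RiboTag sets and in whole cell libraries. The gene lies under 1700003D09Rik on the other strand over 75.4% of its span, and since strand was not used in counting, fragments there were counted for both.

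The calcium sensor gene Hpca (ENSMUSG00000028785, chromosome 4, 129111570 to 129122036, minus strand) differed most clearly between D1- and D2-MSNs on ribosomes. RiboTag libraries labelled male held 279 to 349.9 CPM in D1 (median 302, n = 6) and 421 to 511 in D2 (median 452, n = 6). Those labelled female held 305, 262, 293, 292 and 283 CPM in D1 against 541, 474, 528, 536 and 498 CPM in D2. The lowest D2 library stood above the highest D1 library in both sets. Whole cell libraries ranged from 12.6 to 115 CPM in D1 (median 59.0, n = 8) and from 50.7 to 231 in D2 (median 71.6, n = 6), with wide overlap. In nuclear libraries the order was turned, with 15.4 to 128 CPM in D1 (median 44.5, n = 6) and 5.90, 9.84, 13.1, 4.00 and 8.85 CPM in the 5 D2 libraries, all of them below the lowest D1 library. Hpca lay between the 99.3 and 99.8 percentiles of protein-coding genes per span in the 8 groups.

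The phosphatase gene Ptpn5 (ENSMUSG00000030854, chromosome 7, 47077795 to 47133684, minus strand) was lowest in nuclear D2 and highest in RiboTag libraries on the TMM scale. Under scaling to protein-coding counts, given below, Ptpn5 was not higher in RiboTag than in whole cell libraries. Its median was 46.9 CPM in whole cell D1 (20.9 to 76.2, n = 8) and 63.0 in whole cell D2 libraries (46.8 to 141, n = 6). Nuclear D1 libraries had 41.3 to 124 CPM (median 84.3, n = 6), and nuclear D2 libraries 22.9, 33.8, 36.2, 17.7 and 24.9 CPM, which did not overlap. RiboTag libraries labelled male had 127 to 149 CPM in D1 (median 136) and 166 to 196 in D2 (median 174), again apart. Those labelled female had 134 to 153 in D1 and 145 to 183 in D2, with overlap. Gm14377 on the other strand overlaps 27.1% of the Ptpn5 span, and its counts had group medians of 6.23 to 19.8% of those of Ptpn5.

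Arpp21 and Rasgrp2 completed the signalling group. On the TMM scale Arpp21 (ENSMUSG00000032503, chromosome 9, 112065091 to 112235938, minus strand) was highest in nuclear D1 libraries at 338 ± 118 CPM (SD, n = 6). On that scale it was lowest in nuclear D2 libraries at 139 ± 46.1 (SD, n = 5). Each of the 8 groups overlapped with its neighbour in the order of means. Among protein-coding genes ranked by FPKM over the span, however, Arpp21 stood highest in nuclear D2, at the 99.4 percentile against 98.4 in nuclear D1. Rasgrp2 (ENSMUSG00000032946, chromosome 19, 6399340 to 6415216, plus strand) had 8.39 ± 3.82 CPM in whole cell D1 (SD, n = 8), 15.9 ± 9.72 in whole cell D2 (SD, n = 6) and 5.18 ± 1.88 in nuclear D2 libraries (SD, n = 5). Its level in RiboTag libraries labelled female was 21.3, 25.3, 24.7, 27.6 and 22.9 CPM in D1 and 31.0, 32.1, 32.1, 33.7 and 33.5 CPM in D2, without overlap. Ranges in the libraries labelled male overlapped (19.5 to 33.3 in D1 and 26.1 to 31.7 in D2). Gm14965 on the other strand overlaps 36.6% of the Rasgrp2 span, and its counts had group medians of 32.8 to 52.4% of those of Rasgrp2. Without strand, reads in the shared stretch cannot be told apart.

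Of the retinoid receptor genes, Rarb stood apart from the other genes by method. Rarb (ENSMUSG00000017491, chromosome 14, 16430839 to 16819156, minus strand) is the longest of the 10 genes, and annotated exons make up 1.36% of its span. On the TMM scale it was the only gene of the 10 with its lowest levels in RiboTag libraries. It had 66.7 to 269.8 CPM in whole cell D1 (median 130.0, n = 8), 116 to 448 in whole cell D2 (median 209, n = 6) and 202 to 506 in nuclear D1 libraries (median 288, n = 6). The nuclear D2 libraries held 127, 116, 140.0, 60.7 and 73.9 CPM, below all nuclear D1 libraries. RiboTag libraries held 60.6 to 89.2 CPM in male D1, 77.1 to 90.5 in male D2, 64.1 to 100.4 in female D1 and 69.8 to 90.9 in female D2, with overlap in all pairs. By FPKM over the span, Rarb sat at the 93.4 percentile of protein-coding genes in nuclear D1 libraries and between the 64.0 and 66.8 percentiles in RiboTag groups. Top2b, a gene on the other strand, overlaps 1.19% of the Rarb span, and its counts were 72.3 to 136% of those of Rarb in RiboTag libraries, against group medians of 11.0 to 27.2% in sorted libraries. Reads in the shared stretch cannot be told apart without strand.

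Rxrg (ENSMUSG00000015843, chromosome 1, 167598384 to 167639623, plus strand) was highest in RiboTag libraries instead, on the TMM scale. Under scaling to protein-coding counts, given below, Rxrg was not higher there than in whole cell libraries. Its level was 10.1 to 19.6 CPM in whole cell D1 (median 15.2, n = 8), 11.3 to 45.3 in whole cell D2 (median 19.2, n = 6) and 12.2 to 24.1 in nuclear D1 libraries (median 17.6, n = 6), against 8.83, 11.5, 13.5, 7.44 and 11.2 CPM in nuclear D2 libraries. RiboTag libraries labelled male held 24.1 to 34.5 CPM in D1 (median 32.1) and 34.3 to 49.9 in D2 (median 42.1), a near separation. Those labelled female held 28.8, 31.6, 23.4, 34.1 and 29.7 CPM in D1 and 36.7, 23.7, 42.5, 35.3 and 44.7 CPM in D2, and 1 D2 library fell among the D1 libraries.

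On the TMM scale, the 3 genes of GABA synthesis and transport, all on chromosome 2, had their highest levels on ribosomes. Under scaling to protein-coding counts, given below, Gad2 was not higher there than in whole cell libraries. Gad1 (ENSMUSG00000070880, 70553072 to 70602014, plus strand) had 47.4 ± 21.7 CPM in whole cell D1 (SD, n = 8) and 55.7 ± 23.3 in whole cell D2 libraries (SD, n = 6). Its nuclear level was 21.9 to 55.0 CPM in D1 (median 45.9, n = 6) and 13.6, 15.2, 16.5, 9.91 and 12.9 CPM in D2, without overlap. RiboTag libraries labelled female held 156, 171, 151, 164 and 163 CPM in D1 and 186, 188, 192, 181 and 186 CPM in D2, also without overlap, while those labelled male overlapped at 137 to 180.3 in D1 and 165 to 198 in D2.

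Gad2 (ENSMUSG00000026787, 22622205 to 22693874, plus strand) had RiboTag levels that overlapped widely between D1 and D2, at 266 to 304 and 271 to 326 CPM in male and at 281 to 334 and 286 to 310.3 CPM in female libraries. Nuclear libraries held 26 to 84.4 CPM in D1 (median 55.4, n = 6) and 17.6, 15, 16.8, 10.9 and 11.2 in D2, where a median of 37.0% of its counts equalled the estimated even background over its span. Slc32a1 (ENSMUSG00000037771, 158610767 to 158615748, plus strand) had 3.71 to 19.3 CPM in whole cell D1 (median 13.7, n = 8), 8.34 to 21.0 in whole cell D2 (median 11.4, n = 6) and 2.32 to 17.9 in nuclear D1 libraries (median 11.0, n = 6). It was at 1.46, 1.49, 1.57, 1.14 and 1.89 CPM in nuclear D2 libraries, on 25 to 263 counts, and was 59.1 to 84.9 CPM in the RiboTag libraries labelled male. Gm14205, antisense to Slc32a1, overlaps 18.3% of it and Gad1os 21.0% of Gad1, and without strand their reads cannot be told apart from those of the GABA genes.

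**Figure D1:**
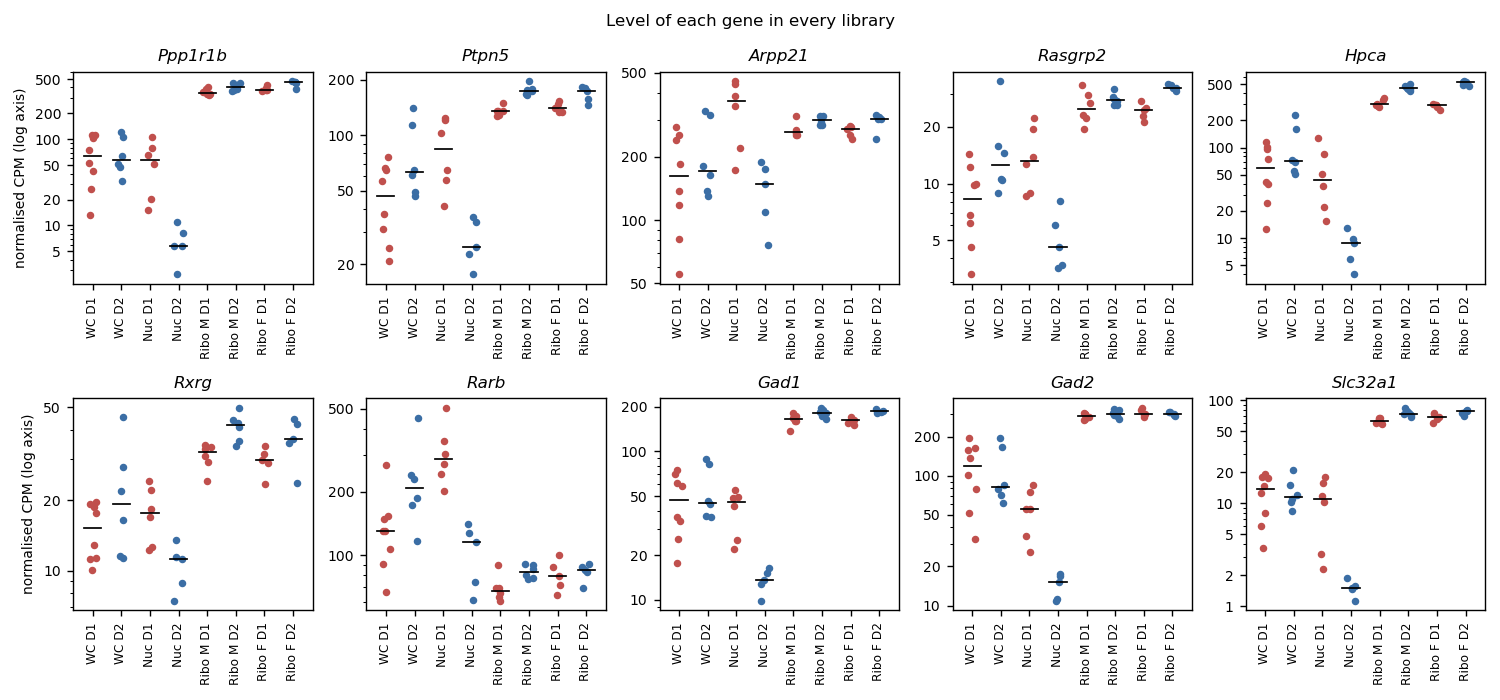
CPM of each of the 10 genes in every library (log axis), in 8 groups of whole cell, nuclear and RiboTag libraries labelled male or female, with D1 in red, D2 in blue and a black bar at the group median. Nuclear D2 libraries have the lowest median in 9 of the panels and a RiboTag group the highest in 8, and Rarb alone has its lowest median in a RiboTag group.

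Compared per length, the order of the genes depended on which length was used. Over the gene span, Ppp1r1b (7.17 ± 4.18 FPKM), Hpca (6.07 ± 3.71) and Slc32a1 (2.51 ± 1.20) came first and Rarb (0.353 ± 0.157) last in whole cell D1 libraries (SD, n = 8). Over annotated exons alone, Rarb moved to the first place at 26 ± 11.6 FPKM in the same libraries. In RiboTag D1 libraries labelled male, Ppp1r1b led on both lengths, with 38 ± 3.08 FPKM over the span and 122 ± 9.88 over exons, and Rarb was next to last over exons (13.2 ± 1.94) and last over the span (0.179 ± 0.0263, SD, n = 6). In RiboTag D2 libraries labelled male, Hpca (43.9 ± 3.01 FPKM over the span) and Ppp1r1b (43.3 ± 4.24) led together, with a difference smaller than the SD of either (n = 6).

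The question of a D1 or D2 preference was then asked in each method on its own. The test was edgeR's quasi-likelihood test, Benjamini-Hochberg adjusted over all genes tested, and log2 fold changes above 0 mean more in D2-MSNs. A gene was called where the adjusted p was 0.05 or less, the log2 fold change passed 0.38 in either direction and the mean normalised count lay above the 25th percentile, and in nuclear libraries also where the standard error lay below the 75th percentile. On ribosomes, Hpca was higher in D2-MSNs in both RiboTag sets. Its log2 fold change was 0.56 (SE 0.05, adjusted p = 7.6e-10 by edgeR, n = 6 and 6) in libraries labelled male and 0.80 (SE 0.05, adjusted p = 9.26e-14 by edgeR, n = 5 and 5) in libraries labelled female. Rxrg was also called in the male set, at 0.40 (SE 0.10, adjusted p = 0.0161 by edgeR), and had 0.27 (SE 0.17, adjusted p = 0.518 by edgeR) in the female set. These were 2 of the 9 genes tested in male libraries, where 0.899% of all 6784 genes tested were called higher in D2, and 1 of 9 in female libraries, where 0.638% of 7057 were.

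Other RiboTag differences were below the fold limit. In male libraries the adjusted p by edgeR also passed for Ptpn5 (log2 fold change 0.37, SE 0.05), Slc32a1 (0.24, SE 0.06), Ppp1r1b (0.18, SE 0.05) and Arpp21 (0.15, SE 0.05), and in female libraries for Rasgrp2 (0.37, SE 0.07), Ptpn5 (0.19, SE 0.06) and Gad1 (0.17, SE 0.05). All 9 values were positive in male libraries, with a median of 0.18 against 0.00 over all genes, and 8 of 9 in female libraries, where Gad2 had -0.07 (SE 0.05). Rarb did not pass the FPKM filter, and without that filter it had 0.26 (adjusted p = 0.018 by edgeR) in male and 0.01 in female libraries. Ranges of D1 and D2 did not overlap for 3 of the 10 genes in each set, which were Ptpn5, Hpca and Slc32a1 in male libraries (1.59% of all genes) and Rasgrp2, Hpca and Gad1 in female libraries (2.25% of all genes). Markers of other neurons differed between the same groups in male libraries, with a sum over 9 GABA interneuron genes of 79.2 to 96.1 CPM in D1 and 34.9 to 57.7 in D2, and over 5 glutamatergic genes of 61.7 to 148 in D1 and 4.71 to 39.9 in D2. In the same libraries cholinergic markers summed to 3.29 to 6.72 CPM in D1 and 16.7 to 22.7 in D2 over 5 genes, and astrocyte markers to 141 to 184 in D1 and 79.6 to 111 in D2 over 6 genes. In female libraries the sums in D1 and D2 were 73.5 to 128 and 32.8 to 74.2 CPM for GABA interneuron, 45.4 to 129.9 and 7.48 to 26.4 for glutamatergic, 3.70 to 7.63 and 10.5 to 27.5 for cholinergic and 110.4 to 174 and 80.9 to 107 for astrocyte markers. All of these were apart between D1 and D2 except the GABA interneuron sums in female libraries, oligodendrocyte sums overlapped in both sets, and the part of other cell types in the levels of the 10 genes was not tested. In such bulk samples, fewer MSNs and less RNA per MSN cannot be told apart.

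Whole cell libraries gave 0 calls among the 10 genes, where 1.09% of 16352 genes were called. Of the 10 genes, 3 had an unadjusted p under 0.05 by edgeR, all with higher values in D2. They were Rasgrp2 (log2 fold change 0.75, SE 0.21, adjusted p = 0.0831), Ptpn5 (0.58, SE 0.19, adjusted p = 0.122) and Rarb (0.63, SE 0.22, adjusted p = 0.149). DESeq2 called these 3 genes, edgeR with DESeq2 size factors called Rasgrp2 and Ptpn5, and edgeR without the number 1 or without the number 4 D2 library called Rasgrp2. Hpca had 0.58 (SE 0.31, adjusted p = 0.431 by edgeR), a value like that on ribosomes with an error several times as large. The median over the 10 genes was 0.26 against -0.09 over all genes, and 0 of 10 genes had D1 and D2 ranges without overlap (0.503% of all genes).

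Nuclear libraries differed in the other direction. Lower levels in D2 were called for 6 of the 10 genes, where 9.06% of the 9228 genes tested were called lower. Ppp1r1b fell by 1.94 on the log2 scale (SE 0.40, adjusted p = 0.0138 by edgeR, n = 6 and 5), Slc32a1 by 1.64 (SE 0.39, adjusted p = 0.0164) and Hpca by 1.63 (SE 0.40, adjusted p = 0.0228). Gad2 had -0.82 (SE 0.20, adjusted p = 0.0169 by edgeR), Ptpn5 -0.55 (SE 0.16, adjusted p = 0.0305) and Gad1 -0.48 (SE 0.15, adjusted p = 0.0392). Rarb (-0.53, SE 0.21), Rasgrp2 (-0.37, SE 0.21), Arpp21 (-0.23, SE 0.18) and Rxrg (0.30, SE 0.13) did not pass, and the median over the 10 genes was -0.54 against 0.03 over all genes. The scale mattered for Rxrg, whose value was 0.30 among genes that passed the FPKM filter and -0.83 when that filter was left out, a change of sign; without the filter all 10 genes were called lower while the median over all genes was 0.26. Ranges of D1 and D2 in CPM did not overlap for 8 of the 10 genes, with 31.2% of all genes in the same state. Rarb and Rasgrp2 were among the 8 but were not called. These CPM are on the scale over all libraries, so they do not give the size of the differences in this fit. Gad2, for example, had means of 55.1 CPM in D1 and 14.3 in D2 beside its log2 fold change of -0.82. Calls also depended on single D2 libraries, since 3 genes were called without number 1, 2 without number 7 and only Ppp1r1b without number 5. Leaving out the 4 D1 libraries and 1 D2 library under 10000000 counts kept 2 against 4 libraries, and gave 0 calls with a median over the 10 genes of -0.43.

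Other measures moved with the nuclear groups. Astrocyte markers summed to 328 to 961 CPM in nuclear D1 and 104 to 199.5 in nuclear D2 libraries over 6 genes, and oligodendrocyte markers to 225 to 655 and 87.4 to 214 over 6 genes, with no gene of either list at 0 throughout a group. These sums are on the CPM scale over all libraries. In the test within nuclear libraries, 2 of 5 astrocyte genes tested were called lower in D2, Slc1a2 (log2 fold change -1.02) and Gja1 (-0.60). Of 6 oligodendrocyte genes, 1 was called lower, Cnp (-0.96). Among the uncalled genes tested, Gfap (1.04, SE 0.40) and Mag (0.18, SE 0.32) were above 0 and the others below 0. Endothelial markers summed to 26.3 to 74.3 CPM in D1 and 69.8 to 82.7 in D2 over 6 genes, with overlap, and their part, like that of the others, was not tested. The estimated even background was 0.572 to 22.1% of counts in nuclear D1 and 32.1 to 51.7% in nuclear D2 libraries. After its subtraction 5 of the 10 genes were called lower.

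**Figure D2:**
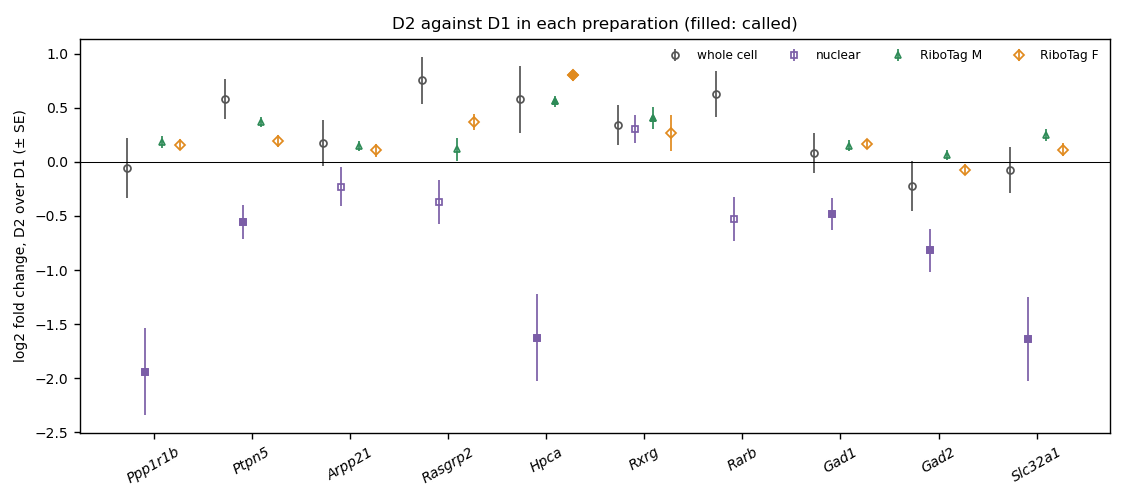
Log2 fold change of D2 over D1 (with SE bars) for each gene in whole cell, nuclear, RiboTag male and RiboTag female libraries, by edgeR, with filled points for called genes. Hpca is filled above 0 in both RiboTag sets, Rxrg in the male set, and 6 genes are filled below 0 in nuclear libraries.

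Whether these D2 to D1 differences themselves changed with method was tested as a contrast of contrasts in one model over the libraries labelled male. All 10 genes had a lower D2 to D1 ratio in nuclear than in whole cell libraries, from -1.32 for Rxrg (SE 0.36, adjusted p = 0.00822 by edgeR) to -3.51 for Hpca (SE 0.64, adjusted p = 0.000313). The median of the 10 genes was -2.35, against 0.33 over all 29901 genes tested, of which 15.8% were called lower. The signalling genes Ppp1r1b (-3.11, SE 0.60) and Hpca and the transporter gene Slc32a1 (-2.81, SE 0.50) had the lowest values. Leaving out any single nuclear library kept all 10 calls, and scaling to protein-coding counts or leaving out nuclear libraries under 10000000 counts left 8. The size of these values depends on the scale and the genes of this model. In the fits within each method, Rxrg had 0.30 in nuclear and 0.34 in whole cell libraries, and Arpp21 had -0.23 and 0.17. Between RiboTag and whole cell libraries the difference ranged from -0.77 (Rasgrp2, SE 0.42) to 0.23 (Slc32a1, SE 0.47), with 0 of 10 called by edgeR, 0 at an unadjusted p under 0.05, and 0.12% of all genes called. The standard errors of 0.34 to 0.60 set the size of difference that could be detected here. In simulated data this contrast called 39% of genes given a log2 change of 1.5, so the absence of calls does not show equal differences.

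Levels were next compared between methods within one cell type, with TMM over all male libraries. Since RiboTag libraries gave 84.9 to 88.3% of their counts to 10 genes, and the median of all genes was -1.86 in RiboTag against whole cell D1 libraries, each value is set beside that median. Under TMM scaling, 9 of the 10 genes were higher in RiboTag than in whole cell D1 libraries (21.3% of all genes), from 0.70 for Arpp21 (SE 0.29) to 2.43 for Ppp1r1b (SE 0.39), and Rarb was lower (59.3% of all genes) at -0.94 (SE 0.27), with adjusted p of at most 0.0237 by edgeR for all 10, but under scaling to protein-coding counts the sign turned for Ptpn5 (-0.10), Arpp21 (-0.94), Rasgrp2 (-0.0049), Rxrg (-0.62) and Gad2 (-0.29). The median over all genes moved to -3.61 under that scaling, so the genes with a turned sign still lay above it. In D2-MSNs, 8 genes were higher in RiboTag libraries (21.9% of all genes), Rarb was lower (59.3% of all genes) at -1.41 (SE 0.28) and Arpp21 was not called (0.57, SE 0.31), and protein-coding scaling turned the same 5 genes, Arpp21 included, and moved the median over all genes from -1.87 to -3.44. Under both scalings and in both cell types, Ppp1r1b, Hpca, Gad1 and Slc32a1 kept positive values and Rarb a negative one.

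The difference between ribosomal and whole cell RNA ran with gene length. Across the 10 genes, the RiboTag to whole cell log2 fold change had a Pearson r of -0.90 with log2 span in D1- and of -0.86 in D2-MSNs, as a description over genes that share their libraries. The shortest gene, Slc32a1, with a span of 4982 bases, had 2.38 (SE 0.32) in D1-MSNs, Ppp1r1b with 9393 bases 2.43 (SE 0.39) and Hpca with 10467 bases 2.31 (SE 0.42), while Arpp21 with 170848 bases had 0.70 and Rarb with 388318 bases -0.94. Between these ends, Gad1 with 48943 bases had 1.82 (SE 0.26) and Gad2 with 71670 bases 1.36 (SE 0.30). Nuclear against whole cell values ran the other way, with r of 0.51 in D1- and 0.73 in D2-MSNs.

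Nuclear and whole cell D1 libraries differed in 4 of the genes. Rarb (1.15, SE 0.26, adjusted p = 0.00124 by edgeR), Arpp21 (0.96, SE 0.29, adjusted p = 0.015) and Ptpn5 (0.81, SE 0.28, adjusted p = 0.0347) were higher and Gad2 (-1.10, SE 0.31, adjusted p = 0.0104) was lower, where 19% of all genes were called. The other 6 genes were not called, and the median of the 10 was -0.01 against -0.32 over all genes. With libraries under 10000000 counts left out, 0 of the 10 were called. In D2-MSNs, 9 of the 10 genes were lower in nuclear than in whole cell libraries (16.5% of all genes), from -1.12 for Rxrg (SE 0.27) to -3.72 for Hpca (SE 0.53), and Arpp21 had -0.62 (SE 0.33, adjusted p = 0.2 by edgeR); the median of the 10 was -1.84 against 0.14 over all genes.

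**Figure D3:**
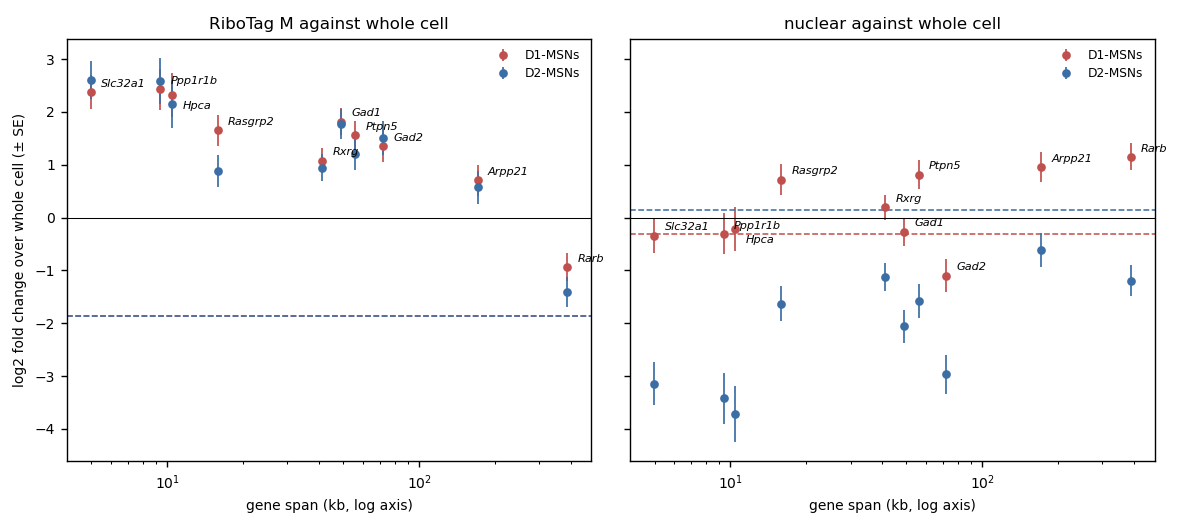
Log2 fold change of RiboTag male and of nuclear against whole cell libraries (by edgeR, with SE bars) plotted on gene span in kb (log axis), for D1 and D2, with a dashed line at the median of all genes. RiboTag values go down from the shortest genes near 2.4 to Rarb at -0.94 in D1, and nuclear values have an r with log2 span of 0.51 in D1 and 0.73 in D2.

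Levels in RiboTag libraries did not differ detectably by the sex label. Of the 9 genes tested, 0 were called in D1 (0% of 7172 genes), in D2 (0.0139%) or in the change of the D2 to D1 difference (0.0279%), by edgeR or by DESeq2. Values ranged from -0.12 to 0.11 in D1 and from -0.22 to 0.17 in D2, with an unadjusted p under 0.05 by edgeR for 1 and 2 genes. The D2 to D1 difference of Hpca was larger by 0.24 in libraries labelled female (SE 0.07), but the adjusted p was 0.340 by edgeR.

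Within a library, the ratio of a pair of members does not depend on depth or scaling, and 2 pairs of partner genes were compared between D2 and D1 by exact permutation tests, two-sided, adjusted over 8 tests. Gad1 counts relative to Gad2 counts, as the mean log2 ratio, were -1.22 in whole cell D1 and -0.93 in whole cell D2 libraries, a difference of 0.29 (exact p = 0.0167, adjusted 0.0444). RiboTag libraries labelled female had -0.92 in D1 and -0.68 in D2, a difference of 0.24 (exact p = 0.00794, adjusted 0.0346). The difference was 0.34 in nuclear (exact p = 0.0260, adjusted 0.0519) and 0.09 in male RiboTag libraries (exact p = 0.113, adjusted 0.180), so the ratio was higher in D2 in all 4 sets and passed in 2. Counts of the antisense gene Gad1os were a median of 25.2% of Gad1 counts in nuclear D1 and 84.7% in nuclear D2 libraries. They were 27.7 and 26.9% in whole cell D1 and D2, and 9.35 to 10.5% in RiboTag groups. Their part in the ratio was not tested. With single whole cell libraries left out, the adjusted p ran from 0.0231 to 0.0746, and it stayed at 0.05 or less only without D1 number 2 or 8 or D2 number 1 or 5. In female RiboTag libraries it was 0.0444 without any of them, on an exact p of 0.0159 that is the smallest 4 against 5 libraries allow.

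The retinoid receptor pair differed in nuclear libraries. Rarb counts relative to Rxrg counts had a mean log2 ratio of 4.12 in nuclear D1 and 3.26 in nuclear D2 libraries, a difference of -0.86 (exact p = 0.00866, adjusted 0.0346), where estimated background made up a median of 27.6% of Rarb and 26.6% of Rxrg counts in D2. Without D2 number 2, 3, 5 or 7 its adjusted p was 0.0508, and without any of the other nuclear libraries it was 0.0317 to 0.0444. The ratio was 3.12 and 3.43 in whole cell D1 and D2 (difference 0.31, exact p = 0.286), 1.17 and 1.02 in male RiboTag (difference -0.15, exact p = 0.216) and 1.44 and 1.21 in female RiboTag libraries (difference -0.23, exact p = 0.175). Hpca relative to Ppp1r1b, compared because both lead per length and given with no test, had a higher mean log2 ratio in D2 than in D1 by every method, at -0.10 and 0.50 in whole cell, -0.04 and 0.34 in nuclear, -0.20 and 0.18 in male RiboTag and -0.43 and 0.21 in female RiboTag libraries.

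Libraries of one sorted group differed from each other in all 10 genes at once. Among deviations from the group mean on the log2 scale, all 45 pairs of genes were positively correlated in whole cell libraries, with a median Pearson r of 0.90 (14 libraries), and in nuclear libraries, with a median of 0.76 (11 libraries). In RiboTag libraries the median was 0.15 (12 male libraries, 29 of 45 pairs above 0) and 0.25 (10 female libraries, 37 of 45). These correlations describe libraries that share their depth and makeup.

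The summed level of the 10 genes is given beside the estimated background of a library. In whole cell D1 libraries the sum ran from 236 to 1112 CPM (median 657), and the lowest libraries, numbers 8 (236 CPM) and 2 (346 CPM), had the most estimated background, at 51.2 and 46.0% of counts. Whole cell D2 libraries ran from 562 to 1525 CPM (median 750.1), and the highest, numbers 5 (1525 CPM) and 1 (1322 CPM), had 8.06 and 10.5% background. The order was not kept throughout, since whole cell D2 number 2 had 585 CPM at 14.2% and number 3 had 784 CPM at 29.4% background. Nuclear sums were 566 to 1355 CPM in D1 and 195 to 405 in D2, without overlap, and RiboTag sums were 1646 to 1867 in male D1, 1949 to 2136 in male D2, 1675 to 1837 in female D1 and 1926 to 2233 in female D2 libraries, with D2 above D1 in both sets.

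**Figure D4:**
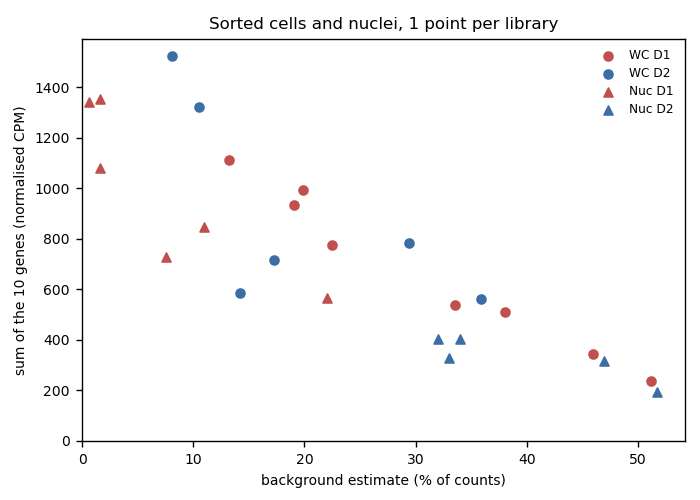
Summed CPM of the 10 genes in each sorted library against the estimated percent of its counts that are even background, for whole cell and nuclear D1 and D2 libraries. The 5 nuclear D2 libraries lie at 195 to 405 CPM and 32.1 to 51.7% background, and the whole cell libraries with the highest and the lowest sum are at 1525 CPM and 8.06% and at 236 CPM and 51.2%.

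Genes most like the 10 were sought among the other protein-coding genes. Over the 8 group means of log2 CPM, the average profile of the 10 was followed most closely by Afdn and Necab2 (Pearson r 0.998 each), Car11, Usp4 and Gm20695 (0.997 each). The 10 genes themselves had r from 0.86 (Arpp21) to 0.99 (Ptpn5) except Rarb at -0.33, with each of them part of that average. Over the deviations of all 47 libraries from their group means, Gnal, which encodes the G protein that couples the D1 receptor to adenylyl cyclase, came first with r = 0.984, followed by Tcf20 (0.974), Ndrg4 (0.970) and the phosphodiesterase gene Pde1b (0.969).

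Partner genes of the same pathways were counted from lists that do not contain the 10. Of 21 genes of DARPP-32, cAMP and phosphatase signalling, 1 was higher in D2 in whole cell libraries (Gng7, log2 fold change 0.84), and in nuclear libraries 9 of 20 tested were lower and 1 higher, where 9.06 and 3.35% of all genes were. The lowest in nuclear D2 were the Cdk5 activator gene Cdk5r1 (-1.83), the phosphatase inhibitor gene Ppp1r2 (-1.60), Pde1b (-1.31) and the calcineurin subunit gene Ppp3r1 (-1.22), and 0 of 21 were called in either RiboTag set. Of the STEP substrates and kinases, the glutamate receptor gene Gria2 was lower in nuclear D2 libraries (-0.74), and 0 genes were called in the other sets. Of Rap and Ras genes, Rasd2, which encodes the small G protein Rhes, was higher in D2 on ribosomes in both sets (0.49 in male and 0.48 in female libraries) and lower in nuclear D2 libraries (-1.43), as was Rasgrp1 (-0.60), out of 6 genes tested in each.

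Retinoid and GABA partners gave few calls. Of the retinoid list, 0 of 4 genes tested were called in whole cell and 0 of 3 in each RiboTag set. Of the GABA list, 1 of 6 was lower in nuclear D2 libraries, the glutamine synthetase gene Glul (-1.69), which astrocytes are known for, and 0 of 7 were called in each of the other sets. Among further MSN genes, Tmem158 (-2.36) and Meis2 (-0.66) were lower in nuclear D2 libraries. Of the forkhead genes, Foxp1 was higher in D2 in whole cell (0.97) and male RiboTag libraries (0.46), and Foxp2 was lower in whole cell D2 libraries (-1.15).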

How the data were processed

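Libraries were ribo-depleted, paired-end SMARTer Stranded libraries. The authors aligned them to GRCm38 with HISAT2 2.0.5 and deposited raw counts per gene from featureCounts (Ensembl 90), over the whole gene body and without regard to strand. A fragment on several genes was counted for each, and fragments with several alignments were not counted, so intronic and antisense reads enter a gene's count. The table had 49 columns, all used. A further lane of whole cell D2 number 3 was summed with its library, as was a column treated, from its name, as a repeat run of whole cell D1 number 1, which left 47 libraries. The chi-square per degree of freedom was 1.04 between the lanes and 6.90 between the runs, against 6.02 to 147 between other D1 libraries, so the counts do not tell that column from another mouse. Kept apart or left out, it gave the same number of calls among the 10 genes in every comparison run. Titles and design text differ on the number of whole cell libraries in each cell type, and 2 whole cell D2 samples were matched to no column. Of 52636 genes, 99.7% were matched to the GENCODE annotation of the same build, which gave spans, exons and overlaps.

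The analysis used edgeR 4.0.16, limma 3.58.1 and DESeq2 1.42.0 under R 4.3.3. Genes with over 1 FPM in 2 or more libraries entered. For tests within whole cell or nuclear libraries, 1 library or more had to reach an FPKM of 1 and none could pass 50000, and for RiboTag tests 2 or more had to reach 0.1. Comparisons between methods used no FPKM filter. They and the comparisons by sex label were called where the adjusted p was 0.05 or less and the log2 fold change passed 0.38 in either direction. Standard errors are the absolute log2 fold change over the square root of the F statistic, and log2 CPM used a prior count of 1. Background is the count per kb on olfactory and vomeronasal receptor genes times the gene span. The fits were tested on simulated data. Alternatives were DESeq2, its size factors, protein-coding library sizes, other filters, a replicate block, a lane term, other treatments of the repeat run and single libraries left out. Background subtraction, leaving out shallow or skewed libraries, and some of the left-out libraries were added after seeing the data. The genes, the lists and the pairs for ratios were chosen with earlier results of these data known. All 10 genes are named, with up to 4 called genes per list by absolute log2 fold change and the 5 closest profiles, except a few items that are not reported here. With 5 to 8 libraries per group, p-values measure the spread between mice as labelled. Protein sequences were not used here.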

Additional observations from a re-analysis of the deposited data

Results flagged for a closer look

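The D2 to D1 difference in nuclear libraries differed from that in whole cell libraries for all 10 genes, by edgeR's quasi-likelihood test of the difference itself with Benjamini-Hochberg adjustment. The difference of the log2 fold changes was -3.11 for Ppp1r1b, -2.40 for Ptpn5, -1.58 for Arpp21, -2.35 for Rasgrp2 and -3.51 for Hpca. It was -1.32 for Rxrg, -2.34 for Rarb, -1.80 for Gad1, -1.87 for Gad2 and -2.81 for Slc32a1. These values hold on the scale of the model over all male libraries. In the fits within each method, Rxrg had 0.30 in nuclear and 0.34 in whole cell libraries.

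One library stood far from the others of its group for 6 of 80 combinations of gene and group, where chance gives about 1 in 20. Rasgrp2 in whole cell D2 number 5 was 34.9 CPM against a group median of 12.5, and Rarb in whole cell D1 number 6 was 269.8 CPM against 130.0. In male RiboTag D1 libraries, number 1 was high for Arpp21 (311 CPM, median 261) and Rarb (89.2 CPM, median 67.6). In female RiboTag D2 libraries, number 2 was low for Ppp1r1b (387 CPM, median 460.4) and Arpp21 (243 CPM, median 303).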

How the results depend on the processing

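Counts of called genes among the 10 stayed within 1.5 times in 151 of 174 alternatives. Results for single genes and ratios kept their side of the threshold, without a called change of sign, in 1674 of 1777. Of those 1674, 44 were uncalled values with the other sign. Of the rest, 53 were weaker, 38 stronger and 12 reversed in sign with a call on at least one side. Among whole cell libraries, 3 genes were called by DESeq2 and 2 with its size factors, and 0 to 1 with a library left out (1 without D2 number 1 or 4). Nuclear libraries gave 10 calls without the FPKM filter and 10 without any filter (Rxrg at -0.83 and -0.82), 0 without libraries under 10000000 counts, and 1 to 6 with a library left out. RiboTag libraries gave 6 calls (male) and 4 (female) on adjusted p alone, and 2 (female) without the FPKM filter or any filter, and 1 to 2 with a library left out (2 without D1 number 2 or 5, or D2 number 1 or 3). Nuclear against whole cell D1 gave 0 calls without libraries under 10000000 counts and 3 to 5 with a library left out. Scaling to protein-coding counts gave 6 calls in RiboTag against whole cell D1, with Ptpn5 at -0.10, Arpp21 at -0.94, Rasgrp2 at -0.0049, Rxrg at -0.62 and Gad2 at -0.29, and turned the D2 values of Ptpn5 (-0.33), Arpp21 (-0.96), Rasgrp2 (-0.61), Rxrg (-0.56) and Gad2 (-0.021). The cause of these changes was not tested.

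Libraries of D1 and D2 that share a number did not deviate together (r of their deviations from -0.285 to 0.212), so the number pairs nothing by the labels. With the number as a replicate block, nuclear D2 against D1 gave 0 calls (0 of all 9228 genes, 2585 at an unadjusted p under 0.05, by edgeR), female RiboTag D2 against D1 gave 2 and nuclear against whole cell D1 gave 2, and the other counts stayed within 1.5 times.

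Over all genes, calls in whole cell D2 against D1 numbered 178 (55 higher, 123 lower), 189 (136 higher, 53 lower) with DESeq2 size factors, 707 by DESeq2 and 32 without the FPKM filter, and in nuclear D2 against D1 1145, or 7215 without the FPKM filter. For the nuclear against whole cell difference, 1819 were higher and 4714 lower, and 9383 and 1213 after protein-coding scaling. Depth limits Slc32a1 and Rasgrp2 most, with as few as 25 and 47 counts in a nuclear library, and background limits the sorted libraries.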
